A study of Mus spretus with 12 samples.

Results

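The genes described here carry out cholesterol synthesis, its feedback control, and the transport and esterification of cholesterol within the cell. They were chosen by name: 29 genes were listed in the order of the pathway, and every array spot with one of those names was taken. Of the 29, 28 had a spot, and all 28 were tested among 18678 gene names. No spot carried the name Acat2, which was not analysed here. All 28 were well above background on all 12 arrays and none was saturated.

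The study measured liver RNA of male Mus spretus mice of the inbred strain SPRET/EiJ on one-colour arrays in 3 groups of 4. Feeding began at 20 months of age and tissue was taken at 22 months in all groups. The control group ate Teklad diet with corn oil. The DDE group ate this diet for 60 days with p,p'-DDE, a persistent breakdown product of the insecticide DDT, at 450 mg per kg, dissolved in the corn oil. The PXDDE group had the same DDE diet, and its drinking water held must of Pedro Ximenez grapes with 85 mg of polyphenols and 31 g of sugar per litre, the latter glucose and fructose in equal parts. No group had must without DDE, and the polyphenols and the sugar of the must were given together, so their parts cannot be told apart. The series asks whether the must protects the liver of DDE-fed mice. The labels do not say whether each array held RNA of 1 mouse, so the spread behind the p-values is that of arrays and may be technical only.

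Cholesterol is built from acetyl-CoA through mevalonate, isoprenoid diphosphates and squalene, and then through a chain of sterols. When sterol in the membrane of the endoplasmic reticulum falls, Scap escorts the precursor of SREBP2, the product of Srebf2, to the Golgi, where it is cut to release a transcription factor for most genes of this pathway. Insig1 and Insig2 hold Scap back when sterol is plentiful. The liver is the main organ of cholesterol synthesis, export in lipoproteins and disposal as bile acids.

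Levels are log2 processed intensities relative to the 75th percentile of the spots of the same array, so 0 is the level of that percentile. They depend on each probe and are compared only within a gene. Each gene is represented by its brightest kept probe, and a change is a difference of group means on this log2 scale. A gene was called higher or lower at a Benjamini-Hochberg adjusted p under 0.05 over all 18678 names, from limma's moderated test on all 12 arrays. Adjusted p-values below are from that fit.

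The probes of 6 genes are printed because later results turn on which probe is read, or on a gene with a single one. Each is 60 bases long, and its first 30 bases, 5′ to 3′, are given with the position of the whole probe in the mouse build mm9, as the array files list it. The files do not say whether a position is exonic, intronic or in a UTR, and the probes follow that build and not the Mus spretus genome. Capitals mark bases that both Insig2 probes shown hold. They overlap along the genome, so their agreement is not that of separate readouts.
Dhcr7, chr7:151033874-151033933, plus strand: tcagaggccattgaagaagggaggcttttt
Insig1, chr5:28404246-28404305, plus strand: acagcatagaacacaacacgtgggacctaa
Insig2, brightest, chr1:123201085-123201144, minus strand: tatgtatacacaagCCTAATGGTAGTAGTG
Insig2, overlapping, chr1:123201071-123201130, minus strand: CCTAATGGTAGTAGTGGTGACCACACTACT
Hmgcs1, brightest, chr13_random:114793-114852, minus strand: agtaattttaacgtttgggtgccaagaagt
Hmgcs1, dim, chr13_random:121437-121496, minus strand: ggcagtgtcataatgtgactggagtgagaa
Ebp, brightest, chrX:7762463-7762522, minus strand: agaaggtggcaagtccgtgacggtggcaac
Ebp, other, chrX:7767243-7767302, minus strand: gtttgctgtgtgtaccttcattcaccttgt
Sc5d, brightest, chr9:42062857-42062916, minus strand: ggctgatgtaataagattgtacttcctata
Sc5d, other, chr9:42060087-42060146, minus strand: ctcgtcttctgacccggcagtacaattctg

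On every array 50.12 to 52.01% of the spots were well above background. Marker genes of other tissues differed between the groups. The mean level of 12 hepatocyte markers lay between 8.40 and 8.50 in control, 8.24 and 8.40 in DDE, and 8.22 and 8.28 in PXDDE. For adrenal cortex markers, 11 of 12 tested, the ranges were 1.66 to 1.76 in control, -1.0 to -0.92 in DDE and 2.20 to 2.26 in PXDDE, and 9 of the 11 were lower in DDE than in control. Among these 9, Cyp11a1, Cyp11b1 and Mgarp were not well above background on any DDE array. Akr1b7 went the other way, by 0.95 in DDE against control (adjusted p = 1.33e-08) and -0.83 in PXDDE against DDE (adjusted p = 4.81e-08). Fdx1 was not called in DDE against control. For 12 pancreatic acinar markers the ranges were 4.84 to 4.89, 4.50 to 4.61 and 7.03 to 7.08, with all 12 higher in PXDDE than in either other group. Skeletal muscle markers lay at 4.05 to 4.11, 2.72 to 2.91 and 2.32 to 2.43, adipocyte markers at 0.87 to 1.06, 0.21 to 0.33 and 0.65 to 0.77, Kupffer cell markers at 1.45 to 1.47, 1.09 to 1.16 and 0.69 to 0.80, and T and B cell markers, 7 tested, at -0.28 to -0.23, -1.25 to -1.13 and -1.62 to -1.52. Of the 10 adipocyte markers 5 were lower and 2, Cidec and Pparg, higher in DDE than in control. The part of these markers in the results below was not tested, and in bulk RNA fewer cells of a type and less RNA per cell cannot be told apart.

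**Figure D1:**
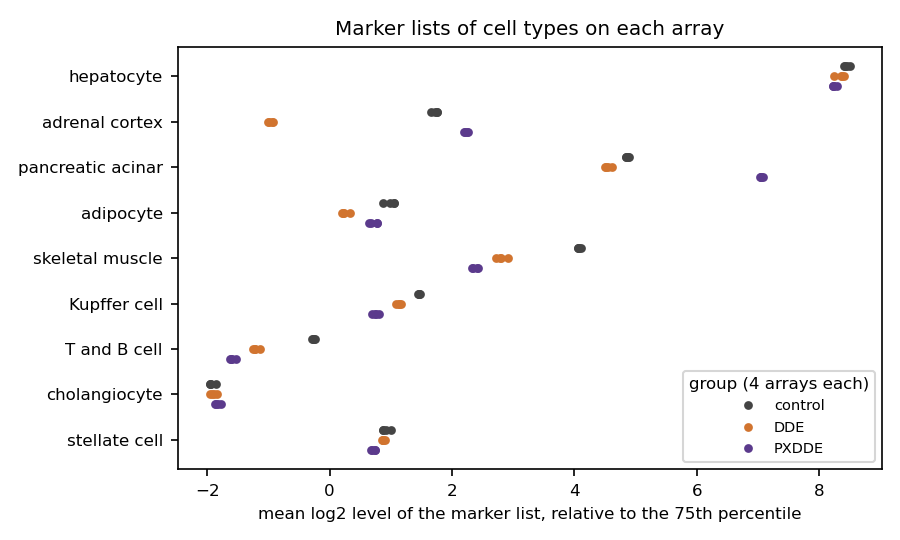
Mean log2 level of each cell type's marker genes on each array, relative to the 75th percentile of that array; every point is 1 array and colours give the group. Adrenal cortex markers are lowest on the 4 DDE arrays, at -1.0 to -0.92, and pancreatic acinar markers highest on the 4 PXDDE arrays, at 7.03 to 7.08.

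Most enzymes of the sterol pathway stood highest in the PXDDE group. Against DDE alone 19 of the 28 genes were higher, 5 were lower and 4 were not called, with a median change of 0.32. Of all genes tested 20.2% were called higher and 29.7% lower in that comparison, with a median of -0.04. Against control 20 were higher, 5 lower and 3 not called, with a median of 0.38; over all genes tested 31.6% were called higher and 39.3% lower, with a median of -0.06. The DDE diet by itself went with 13 higher, 7 lower and 8 uncalled genes against control, with a median of 0.14, where 24.0% of all genes were called higher, 26.3% lower, and the median was -0.02. The share of members called lower was thus near the background in the DDE comparison, at 7 of 28. The 3 comparisons share their arrays in pairs and are not independent of each other.

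The count of 7 lower genes was 4 when control replicate 2 or DDE replicate 4 was left out. Centring each array on its median moved the median of all genes tested to 0.21, 0.10 and 0.32 for DDE against control, PXDDE against DDE and PXDDE against control, and the members' medians to 0.37, 0.46 and 0.75. Under it the members lower numbered 2, 3 and 2. Within the 3 slides that held arrays of both groups, the members' median change was 0.05, 0.12 and 0.13 for DDE against control, 0.36, 0.33 and 0.25 for PXDDE against DDE, and 0.42, 0.37 and 0.39 for PXDDE against control.

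**Figure D2:**
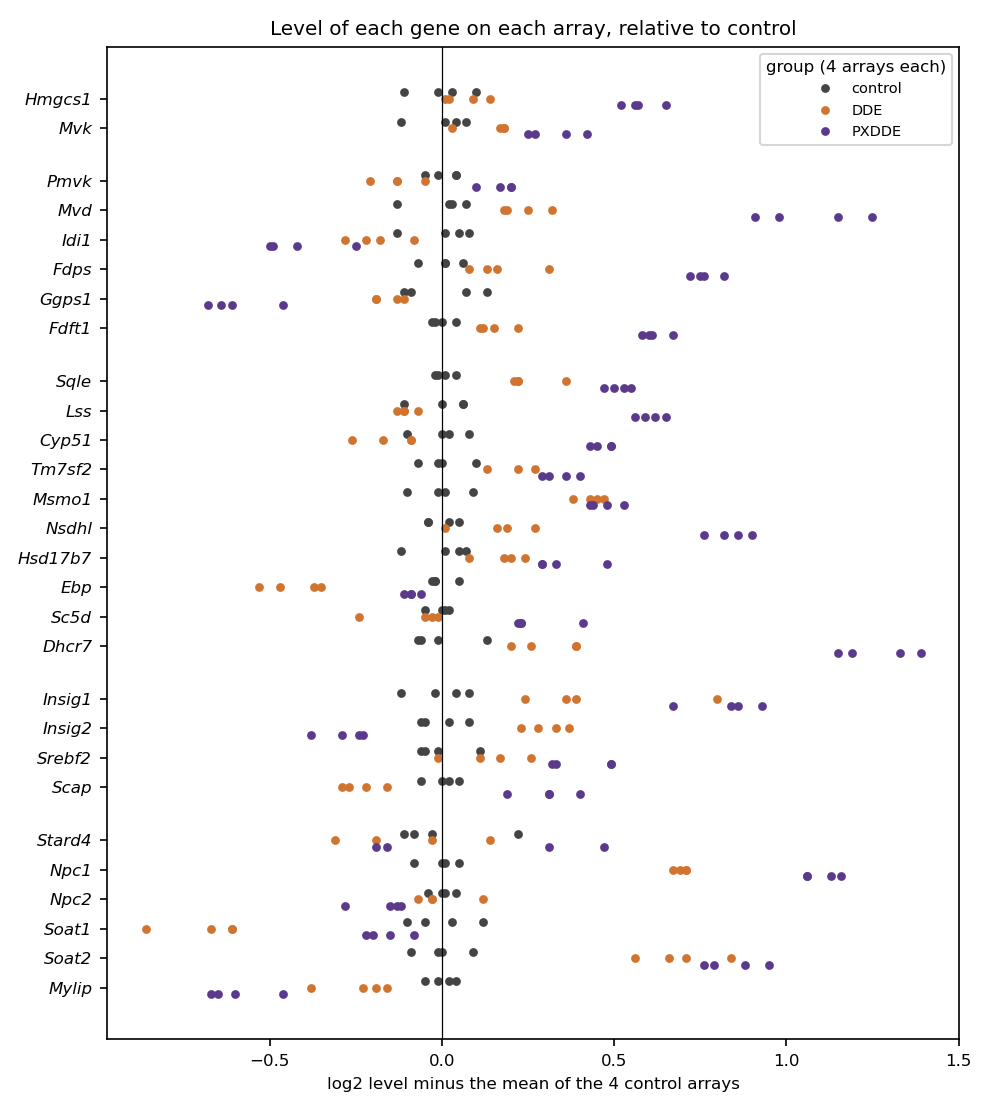
Log2 level of each of the 28 genes on each array minus the mean of its 4 control arrays, in pathway order, with 1 point per array and the group in colour (Tm7sf2 has 3 DDE points). The PXDDE points of Dhcr7, Mvd and Nsdhl lie apart from both other groups, while those of Idi1, Ggps1, Ebp, Insig2, Npc2 and Mylip lie below control (under median centring Insig2 is at 0.09, and Ebp and Npc2 are above control as well).

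The first steps carry acetyl-CoA units to mevalonate. Hmgcs1 encodes the cytosolic synthase that makes HMG-CoA. Its level was 7.28, 7.21, 7.17 and 7.07 on the control arrays, 7.20, 7.32, 7.27 and 7.19 on the DDE arrays, and 7.83, 7.74, 7.70 and 7.75 on the PXDDE arrays. Control and DDE overlapped, and every PXDDE array lay above both. The change was 0.51 (SE 0.054, adjusted p = 1.71e-05) against DDE and 0.57 (SE 0.054, adjusted p = 2.14e-06) against control, while DDE against control gave 0.06 (adjusted p = 0.379), a difference that was called under median centring (0.29), with the deposited values (0.23) and with the mean of its probes (0.36). A second, dim Hmgcs1 probe, with group means of -1.98, -1.32 and -2.46 in control, DDE and PXDDE, moved the other way in PXDDE, by -1.14 against DDE and -0.48 against control. With the mean of both probes in place of the brightest, Hmgcs1 changed by -0.31 in PXDDE against DDE and by 0.05, not called, in PXDDE against control.

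Mvk, the kinase that phosphorylates mevalonate, had means of 5.03 ± 0.084, 5.17 ± 0.074 and 5.36 ± 0.081 (SD, n = 4) in control, DDE and PXDDE. It was 1.14-fold higher in PXDDE than in DDE (adjusted p = 0.022) and 1.25-fold higher than in control (adjusted p = 4.23e-04). The former call was lost without DDE replicate 4, at 0.15, without PXDDE replicate 1, at 0.15, or without PXDDE replicate 3, at 0.17. DDE against control gave 0.14 (adjusted p = 0.0718), and it passed the threshold, among other alternatives, without DDE replicate 4, at 0.18, as well as with median centring, normexp correction or the mean of its probes.

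Beside Mvk, 6 genes listed from mevalonate to squalene were tested, among them Ggps1, which branches off. Of these 6, 4 were higher and 2 lower in PXDDE, whether set against DDE or control. Among all genes tested 20.2% were called higher and 29.7% lower in PXDDE against DDE. The shares in PXDDE against control were 31.6% and 39.3%, so the 2 of 6 lower is near the background. Mvd, the decarboxylase that forms isopentenyl diphosphate, changed most. Its level was -0.58, -0.43, -0.42 and -0.38 in control, -0.13, -0.26, -0.27 and -0.20 in DDE, and 0.46, 0.80, 0.70 and 0.53 in PXDDE. The groups lay one above another without overlap. Mvd was 1.79-fold higher in PXDDE than in DDE (log2 change 0.84, SE 0.075, adjusted p = 4.43e-06) and 2.11-fold higher than in control (1.08, SE 0.075, adjusted p = 1.74e-07). The rise in DDE against control, 0.24 (adjusted p = 0.0209), was not called without control replicate 1, at 0.20, or without DDE replicate 1, at 0.21.

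Fdps, which joins the isoprene units to farnesyl diphosphate, was at 6.99, 6.94, 6.94 and 6.86 in control, 7.24, 7.06, 7.09 and 7.01 in DDE, and 7.69, 7.65, 7.68 and 7.75 in PXDDE. Fdft1, which condenses farnesyl diphosphate to squalene, was at 5.94, 5.91, 5.92 and 5.98, then 6.16, 6.05, 6.09 and 6.06, then 6.52, 6.61, 6.54 and 6.55 on the arrays of the same groups. Both rose in steps, with no overlap between any groups. Fdps changed by 0.17 in DDE against control (adjusted p = 0.02) and by 0.59 in PXDDE against DDE (adjusted p = 5.42e-06), Fdft1 by 0.15 (adjusted p = 9.34e-03) and 0.46 (adjusted p = 3.75e-06). The DDE call of Fdps was lost without control replicate 4, at 0.15, and with the slide as a block, at 0.13. A second Fdft1 probe changed by 0.24 and 0.60 in these comparisons.

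Pmvk, the phosphomevalonate kinase between Mvk and Mvd, did not follow that order. Its means were 5.82, 5.69 and 5.99 in control, DDE and PXDDE, a fall of 0.13 in DDE (adjusted p = 0.0278), which turned to a rise of 0.10 under median centring, and a rise of 0.30 in PXDDE against DDE (adjusted p = 2.41e-04). Among other alternatives, the fall was not called without any 1 of control replicates 2 and 4 (-0.12 each) or DDE replicates 2, 3 (-0.13 each) and 4 (-0.11), nor with the deposited values (-0.07), and held under 14 of 23 alternatives. Its second probe changed by -0.12 and 0.39.

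The 2 genes of this group that fell in PXDDE were Idi1 and Ggps1. Idi1 encodes the isomerase that turns isopentenyl into dimethylallyl diphosphate. It was at 5.67, 5.64, 5.60 and 5.46 in control, 5.31, 5.51, 5.41 and 5.37 in DDE, and 5.34, 5.10, 5.09 and 5.17 in PXDDE. PXDDE lay below control without overlap, and DDE overlapped both. The fall in PXDDE against control was 0.42 on the log2 scale (adjusted p = 2.17e-04), with 0.04 under median centring and 0.13 with the deposited values, neither of them called. Against control DDE changed by -0.19 (adjusted p = 0.0392), which was 0.04 under median centring, and the call was lost, among other alternatives, without control replicate 1 (-0.17), 2 (-0.17) or 3 (-0.19), without DDE replicate 1 (-0.16), 3 (-0.20) or 4 (-0.18), or without PXDDE replicate 4 (-0.19), or with the deposited values (-0.13). PXDDE against DDE gave -0.23 (adjusted p = 0.0189), not called under 4 of the 5 other scalings, nor without DDE replicate 2 (-0.19), PXDDE replicate 2 (-0.20) or PXDDE replicate 3 (-0.20).

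Ggps1 makes geranylgeranyl diphosphate and so leads away from sterols to the lipid anchors of proteins. Its level was -0.47, -0.25, -0.31 and -0.49 in control, -0.49, -0.57, -0.51 and -0.57 in DDE, and -1.02, -0.84, -0.99 and -1.06 in PXDDE. All PXDDE arrays lay below the rest. Ggps1 was 1.36-fold lower in PXDDE than in DDE (adjusted p = 1.97e-04) and 1.51-fold lower than in control (adjusted p = 7.15e-06), and both calls held under each of the 5 other scalings. The 5 other kept probes of the gene changed by -1.46, -0.57, -0.13, -0.38 and -0.42 in PXDDE against control, all in the same direction. Of these, 1 changed by 0.07 in PXDDE against DDE. DDE against control gave -0.15 (adjusted p = 0.0719), called without control replicate 4 (-0.19) and with the mean of its probes (-0.30), but 0.08 under median centring.

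From squalene to cholesterol 10 genes were tested. In PXDDE 8 of them were higher than in DDE and 9 were higher than in control, with none called lower, and in DDE 6 were higher and 2 lower than in control. Among all genes tested 20.2% were called higher and 29.7% lower in PXDDE against DDE, and 31.6% and 39.3% in PXDDE against control. In DDE against control the shares were 24.0% and 26.3%, so the 2 of 10 lower is near the background. The largest change of all the members was that of Dhcr7, the reductase of the last step from 7-dehydrocholesterol to cholesterol. Dhcr7 was at 3.27, 3.22, 3.21 and 3.41 in control, 3.48, 3.54, 3.67 and 3.67 in DDE, and 4.43, 4.67, 4.61 and 4.47 in PXDDE. The 3 groups did not overlap, and PXDDE stood far above DDE. DDE against control gave 0.31 (SE 0.071, adjusted p = 3.48e-03), PXDDE against DDE 0.95 (SE 0.071, adjusted p = 1.02e-06) and PXDDE against control 1.27 (SE 0.071, adjusted p = 3.1e-08), the last a 2.41-fold difference. All 3 were called under each alternative tried.

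Nsdhl, a dehydrogenase in the removal of methyl groups from the sterol ring, was at 1.46, 1.55, 1.52 and 1.46 in control, 1.51, 1.66, 1.69 and 1.77 in DDE, and 2.32, 2.36, 2.40 and 2.26 in PXDDE. Only PXDDE stood clear of both other groups. It was 1.60-fold above DDE (0.67, adjusted p = 3.18e-06) and 1.79-fold above control (0.84, adjusted p = 1.65e-07). DDE against control was called at 0.16 (adjusted p = 0.0366), but, among other alternatives, not without control replicate 1 (0.15), 3 (0.17) or 4 (0.15), nor without DDE replicate 2 (0.16), 3 (0.15) or 4 (0.12), nor with quantile normalisation (0.11), normexp and quantile normalisation (0.12) or the deposited values (0.13). It held under 12 of 23 alternatives.

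Lss closes squalene epoxide to lanosterol, and Cyp51 removes the first methyl group of lanosterol. Lss was at 4.96, 4.96, 4.90 and 4.79 in control, 4.83, 4.77, 4.79 and 4.79 in DDE, and 5.55, 5.46, 5.49 and 5.52 in PXDDE. Cyp51 was at 5.08, 5.02, 4.90 and 5.0, then 4.91, 4.74, 4.91 and 4.83, then 5.45, 5.49, 5.43 and 5.49 in the same groups. For both genes DDE overlapped control at its lower edge and PXDDE lay above everything else. In PXDDE against DDE Lss changed by 0.71 (SE 0.046, adjusted p = 3.84e-07) and Cyp51 by 0.62 (SE 0.052, adjusted p = 2.76e-06). The 2 other Lss probes gave 0.83 and 0.73 in that comparison, and the other Cyp51 probe 0.62.

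Against control, DDE changed Lss by -0.11 (adjusted p = 0.0731), called without control replicate 4 (-0.15), with quantile normalisation (-0.16), with normexp and quantile normalisation (-0.14) and with the slide as a block (-0.14). The sign of this Lss change was positive under median centring, at 0.12. Cyp51 was lower in DDE by 0.15 on the log2 scale (adjusted p = 0.0287), but higher by 0.08 under median centring, and not called, among other alternatives, without control replicate 1 (-0.13) or 2 (-0.15) or without DDE replicate 2 (-0.12) or 4 (-0.15), or with the mean of its probes (-0.08). The other Cyp51 probe had the same mean, 1.21, in both groups.

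Sqle, the epoxidase of squalene, was at 4.55, 4.49, 4.50 and 4.52 in control, 4.87, 4.73, 4.73 and 4.72 in DDE, and 5.06, 5.01, 5.04 and 4.98 in PXDDE. Its 2 steps were of like size, 0.25 (adjusted p = 6.48e-04) and 0.26 (adjusted p = 5.34e-04), with no overlap between groups.

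Msmo1, an oxidase of the methyl groups at carbon 4 of the ring, had a different order. It was at 6.81, 6.91, 6.83 and 6.72 in control, 7.27, 7.25, 7.29 and 7.20 in DDE, and 7.35, 7.26, 7.25 and 7.30 in PXDDE. DDE and PXDDE overlapped, and both stood above control. DDE against control gave 0.43 (SE 0.048, adjusted p = 2.17e-05), and PXDDE against DDE 0.04 with a 95% interval of -0.07 to 0.14 (adjusted p = 0.523). Under 4 of the 5 other scalings the latter was called higher, at 0.18 to 0.35. A second probe changed by 0.39 and 0.25 in these comparisons, and another, with means of -3.57, -3.51 and -4.61, by 0.06 and -1.11. The latter probe was well above background on all 4 control and all 4 DDE arrays but on only 1 PXDDE array. With the mean of the 3 probes none of the comparisons was called, at 0.30 for DDE against control, -0.27 for PXDDE against DDE and 0.02 for PXDDE against control.

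Tm7sf2, a reductase of the sterol ring, had means of 6.38, 6.58 and 6.72, the DDE mean over 3 arrays because 1 spot was marked as an outlier on DDE replicate 3. It was higher in DDE than in control by 0.20 (adjusted p = 0.0118) and in PXDDE than in control by 0.34 (adjusted p = 1.51e-04). A second probe changed by 0.26 and 0.47 in these comparisons. With the mean of both probes neither was called, at -0.02 and 0.40; there the dimmer probe stands alone on DDE replicate 3, which lowers the DDE mean. PXDDE against DDE gave 0.14 (adjusted p = 0.0632), which was called under all 5 other scalings, at 0.18 to 0.54, and without DDE replicate 1, at 0.17. Hsd17b7, a keto-reductase that acts next to Nsdhl, had means of 4.86, 5.04 and 5.21, with changes of 0.17 (adjusted p = 0.0323) and 0.17 (adjusted p = 0.0359). Its DDE call was lost, among other alternatives, without control replicate 2 (0.18) or 4 (0.13) or DDE replicate 2 (0.17), 3 (0.15) or 4 (0.17), with 3 of the 5 other scalings, and with the mean of its probes (0.08). That call held under 12 of 23 alternatives. Its PXDDE call against DDE was lost, again among others, without DDE replicate 1 (0.14), 2 (0.17) or 4 (0.18) or PXDDE replicate 1 (0.13) or 3 (0.18), and with the mean of its probes (0.27), and held under 15 of 23.

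Ebp, an isomerase that shifts a double bond in the ring, fell in DDE. It was at 7.52, 7.45, 7.44 and 7.45 in control, 7.10, 7.0, 7.12 and 6.94 in DDE, and 7.38, 7.36, 7.41 and 7.38 in PXDDE. The DDE arrays lay below all others, and PXDDE lay just under control without overlap. The fall in DDE was 1.34-fold (log2 change -0.43, SE 0.047, adjusted p = 2.27e-05), and PXDDE was 0.34 above DDE (adjusted p = 1.17e-04). PXDDE against control gave -0.09 (adjusted p = 0.125), which turned into a called rise under quantile normalisation (0.10), median centring (0.29), the deposited values (0.34) and the mean of both probes (0.17), and into an uncalled one with normexp and quantile normalisation (0.10). The other Ebp probe changed by -0.18, 0.60 and 0.42 in DDE against control, PXDDE against DDE and PXDDE against control. Adrenal cortex, pancreatic acinar and adipocyte markers were lowest on the same DDE arrays, as given above, and their part in this fall was not tested.

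Sc5d, the desaturase just before Dhcr7, had means of 5.50, 5.42 and 5.77. Its brightest probe did not pass in DDE against control, at -0.08 (adjusted p = 0.303; 0.15 under median centring), and rose by 0.35 in PXDDE against DDE (adjusted p = 5.83e-04). The other Sc5d probe had means of 3.12, 3.64 and 4.26 and changed by 0.52 and 0.62. The mean of both gave 0.22 for DDE against control, past the threshold.

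**Figure D3:**
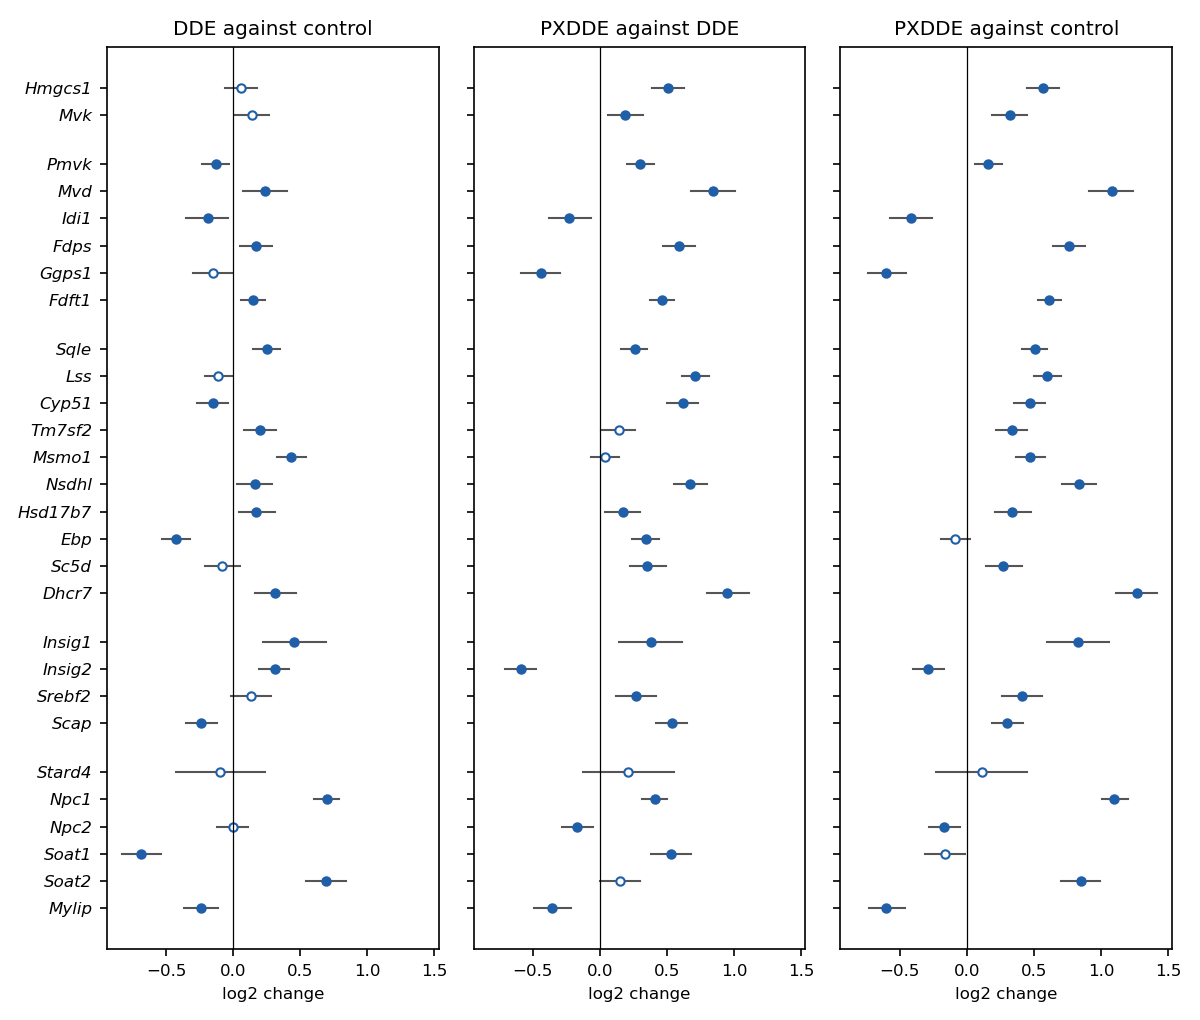
Log2 change of each of the 28 genes in pathway order for the 3 comparisons, with its 95% confidence interval from the limma fit; filled points passed adjusted p under 0.05 and open points did not. In the second panel 19 filled points lie to the right of 0 and 5 to the left, which are Idi1, Ggps1, Insig2, Npc2 and Mylip.

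The genes that sense sterol moved apart from each other. Insig1 was at 2.03, 1.87, 1.97 and 2.07 in control, 2.79, 2.23, 2.38 and 2.35 in DDE, and 2.66, 2.92, 2.83 and 2.85 in PXDDE. DDE replicate 1 lay among the PXDDE arrays, and control lay below all others. Insig1 rose by 0.45 in DDE against control (SE 0.11, adjusted p = 4.42e-03) and by 0.38 in PXDDE against DDE (SE 0.11, adjusted p = 0.012), and was 1.78-fold above control in PXDDE (adjusted p = 2.67e-05).

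Insig2 was at 4.24, 4.18, 4.10 and 4.11 in control, 4.44, 4.39, 4.49 and 4.53 in DDE, and 3.92, 3.87, 3.78 and 3.93 in PXDDE. DDE was the highest group and PXDDE the lowest, with no overlap. Insig2 rose by 0.31 in DDE (SE 0.052, adjusted p = 5.2e-04) and was 1.51-fold lower in PXDDE than in DDE (-0.59, SE 0.052, adjusted p = 3.75e-06). Against control PXDDE gave -0.29 (adjusted p = 4.04e-04), but 0.09 under median centring. The overlapping probe printed above gave 0.32, -0.58 and -0.25 for DDE against control, PXDDE against DDE and PXDDE against control, and another Insig2 probe elsewhere gave 0.36, -0.57 and -0.21.

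The change of Insig1 minus that of Insig2 was 0.97 in PXDDE against DDE and 1.12 in PXDDE against control, each with an exact permutation p = 0.0286, the smallest that 70 splits of the arrays allow, and 0.0322 after adjustment over 9 tests. In DDE against control the difference was 0.15 (exact permutation p = 0.4). These tests of related genes, and those of 2 further pairs below, were added after the values were seen. The adjustment does not account for that choice.

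Srebf2 itself had means of 1.70 ± 0.081, 1.83 ± 0.11 and 2.11 ± 0.097 (SD, n = 4). It was higher in PXDDE by 0.27 against DDE (adjusted p = 6.5e-03) and 0.41 against control (adjusted p = 2.4e-04), and DDE against control was not called, at 0.13 (adjusted p = 0.129), though it was called without DDE replicate 1 (0.18), under median centring (0.36) and with the slide as a block (0.19). Its dimmer probe changed by 0.48 and 0.92 in PXDDE against DDE and control.

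Srebf1, whose product drives mostly genes of fatty acid synthesis, had means of 5.73, 5.31 and 6.37. The change of Srebf2 minus that of Srebf1 was 0.55 in DDE against control, -0.78 in PXDDE against DDE and -0.24 in PXDDE against control, each with exact permutation p = 0.0286 and 0.0322 after adjustment. With the mean of each gene's probes the last of these was 0.02, and it did not pass without control replicate 3 (-0.22) or 4 (-0.21). The tests of this pair were also added after the values were seen, which their p-values do not account for.

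Scap, the escort of both SREBPs, was at 4.73, 4.70, 4.62 and 4.68 in control, 4.41, 4.46, 4.52 and 4.39 in DDE, and 4.99, 4.99, 4.87 and 5.08 in PXDDE. DDE lay below control and PXDDE above it, with no overlap. The fall in DDE was 0.24 on the log2 scale (adjusted p = 3.04e-03), but only 0.01 and not called under median centring, and PXDDE was 1.45-fold above DDE (adjusted p = 8.71e-06). Adrenal cortex and pancreatic acinar markers followed the same order of groups, and their part here was not tested.

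Of the 6 genes of trafficking, storage and receptor turnover, 2 were higher and 2 lower in each comparison. Over all genes tested, 24.0%, 20.2% and 31.6% were called higher in DDE against control, PXDDE against DDE and PXDDE against control. The shares called lower were 26.3%, 29.7% and 39.3%, so these counts are near the background. Npc1 encodes the membrane protein that moves cholesterol out of lysosomes. It was at 2.96, 2.87, 2.95 and 3.0 in control, 3.66, 3.62, 3.66 and 3.64 in DDE, and 4.01, 4.11, 4.08 and 4.01 in PXDDE. The groups were tightly spaced and apart. Npc1 was 1.62-fold higher in DDE than in control (0.70, SE 0.042, adjusted p = 1.92e-07) and 1.33-fold higher in PXDDE than in DDE (0.41, SE 0.042, adjusted p = 1.41e-05).

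These values rest on 1 Npc1 probe. A dimmer one had means of -1.46, -2.20 and -2.64 and another -1.49, -2.15 and -2.68, so both fell over the same groups. With the mean of the probes Npc1 changed by -0.23, -0.19 and -0.42 in DDE against control, PXDDE against DDE and PXDDE against control. Npc2, the soluble partner that hands cholesterol to Npc1, had means of 3.24, 3.24 and 3.07. Its fall by 0.17 in PXDDE against control (adjusted p = 0.013) became a rise of 0.21 under median centring. The fall by 0.17 against DDE (adjusted p = 0.0203) was not called, among other alternatives, without PXDDE replicate 1 (-0.13), with quantile normalisation (-0.14), median centring (-0.02) or the deposited values (-0.12).

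Soat1 and Soat2 esterify cholesterol for storage. In rodents Soat2 is the form of hepatocytes, and Soat1 is found in macrophages, the adrenal cortex and many other cells. Soat1 was at 0.01, -0.21, -0.08 and -0.16 in control, -0.72, -0.78, -0.72 and -0.97 in DDE, and -0.19, -0.33, -0.26 and -0.31 in PXDDE. DDE lay below both other groups, which overlapped. Soat1 was 1.61-fold lower in DDE than in control (-0.69, SE 0.067, adjusted p = 9.45e-06) and 1.44-fold higher in PXDDE than in DDE (0.53, SE 0.067, adjusted p = 6.77e-05).

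PXDDE against control gave -0.16 for Soat1 (adjusted p = 0.0542). Among other alternatives, it was called lower without control replicate 2 (-0.19), DDE replicate 4 (-0.16) or PXDDE replicate 1 (-0.18), and called higher under median centring, at 0.22. Its 3 other kept probes fell in DDE as well, by 0.87, 0.51 and 0.73 on the log2 scale. The last of them was well above background on only 3 control and 2 DDE arrays, and on all 4 PXDDE arrays. In the same order these probes changed by 0.13, 0.56 and 0.97 in PXDDE against DDE. Against control PXDDE gave -0.74, 0.04 and 0.24, so the probes differ on the rise in PXDDE. The adrenal cortex markers were also lowest in DDE, with medians of their changes of -4.02 in DDE against control and 4.86 in PXDDE against DDE. Pancreatic acinar and adipocyte markers were lowest in DDE too, with medians of -0.28 and 2.69, and of -0.53 and 0.59. For 12 Kupffer cell markers the medians were -0.28 and -0.37, with 10 and 9 called lower. The part of any of these lists in the Soat1 values was not tested.

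Soat2 was at 0.49, 0.50, 0.41 and 0.59 in control, 1.34, 1.06, 1.21 and 1.16 in DDE, and 1.29, 1.45, 1.26 and 1.38 in PXDDE. Both DDE-fed groups lay above control and overlapped each other. The rise in DDE was 1.62-fold (0.69, SE 0.068, adjusted p = 9.13e-06), and PXDDE against DDE gave 0.15 (95% interval 0.0 to 0.30, adjusted p = 0.0806), called without DDE replicate 1, at 0.20, with the mean of its probes, at 0.18, and under 3 of the 5 other scalings. The other Soat2 probe changed by 1.01 and 0.22. The change of Soat1 minus that of Soat2 was -1.38 in DDE against control, 0.38 in PXDDE against DDE and -1.0 in PXDDE against control, each with exact permutation p = 0.0286 and 0.0322 after adjustment. The second of these did not pass without DDE replicate 1 (0.35), DDE replicate 4 (0.33), PXDDE replicate 1 (0.33) or PXDDE replicate 3 (0.34). The tests of Soat1 and Soat2 were likewise added after the values were seen, which their p-values do not account for.

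**Figure D4:**
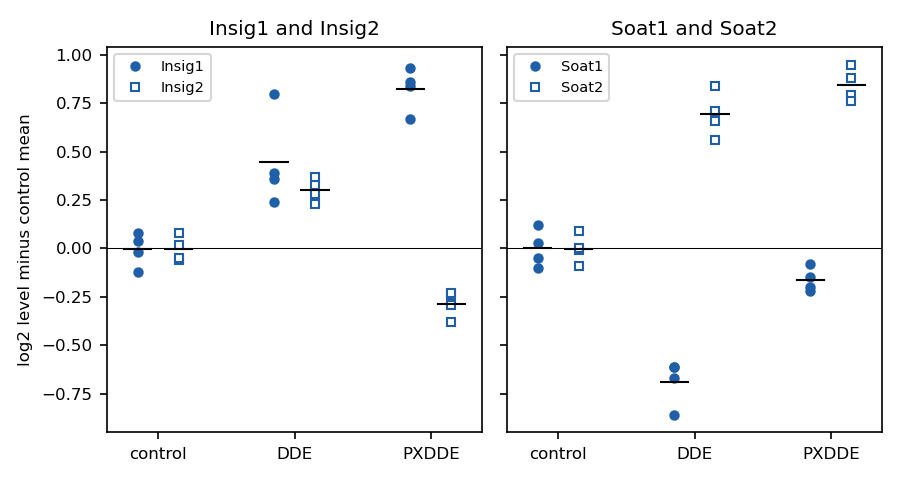
Log2 level on each array minus the gene's control mean for Insig1 and Insig2 (left) and Soat1 and Soat2 (right), by group; points are arrays and bars are means of 4. Insig1 and Insig2 are both up in DDE and lie on opposite sides of control in PXDDE (not under median centring, where Insig2 is at 0.09), and Soat1 is down in DDE where Soat2 is up.

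Mylip encodes a ubiquitin ligase that sends lipoprotein receptors of the cell surface to degradation, and it is induced by the sterol receptor LXR. It was at -0.29, -0.31, -0.38 and -0.34 in control, -0.71, -0.49, -0.52 and -0.56 in DDE, and -0.79, -1.0, -0.98 and -0.93 in PXDDE. It fell from group to group with no overlap. PXDDE was 1.28-fold below DDE (adjusted p = 5.29e-04) and 1.51-fold below control (adjusted p = 3.6e-06). DDE against control gave -0.24 (adjusted p = 6.19e-03), but only -0.01 and not called under median centring.

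Stard4, a soluble carrier of sterols, passed in no comparison by its brightest probe, and its DDE change against control was -0.10, or 0.13 under median centring. It was at 2.91, 2.99, 3.24 and 2.94 in control, 2.71, 3.16, 2.83 and 2.99 in DDE, and 3.49, 2.86, 3.33 and 2.83 in PXDDE. Its PXDDE arrays were split, with SD 0.33, and the 95% interval of PXDDE against DDE ran from -0.13 to 0.55. Under median centring PXDDE against control was called higher, at 0.49, and with the mean of its probes so was PXDDE against DDE, at 0.25. In a limma fit over all kept probes, its dimmer probe changed by -0.23 in DDE against control (adjusted p = 0.0105). That probe changed by 0.30 in PXDDE against DDE (adjusted p = 2.86e-03) and by 0.06, not called, in PXDDE against control.

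**Figure D5:**
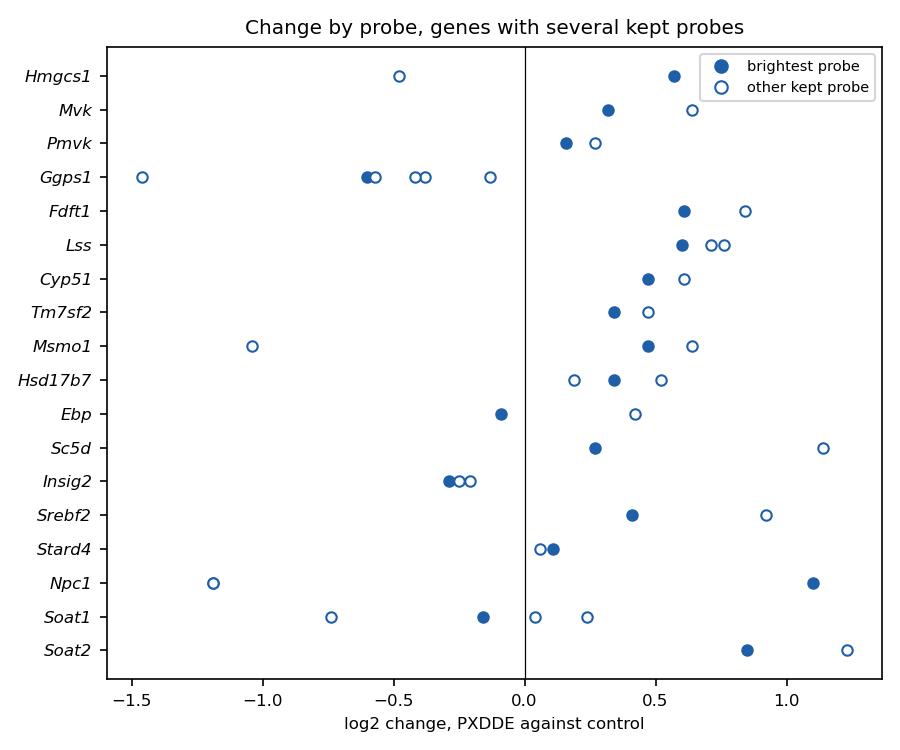
Log2 change in PXDDE against control for every kept probe of the 18 genes that have several; filled points are the brightest probe, which stands for the gene, and open points the others. Of the 29 open points, 22 lie on the same side of 0 as the filled point; those that do not belong to Hmgcs1, Msmo1 (1 of 2), Ebp, Npc1 (both) and Soat1 (2 of 3).

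Of the 28 genes, 10 were read by 1 kept probe and 18 by several, with 29 further probes in all. Among called genes, 14 of 17 such probes had the sign of the brightest one in DDE against control, 20 of 24 in PXDDE against DDE and 20 of 24 in PXDDE against control. The opposite ones belonged to Hsd17b7 and Npc1 in the first comparison, to Hmgcs1, Ggps1 and Npc1 in the next, and to Hmgcs1, Msmo1 and Npc1 in the last.

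The neighbouring pathways were read from lists of genes chosen with earlier results of these data known. Their counts stand beside the shares over all genes tested. These were 24.0% higher and 26.3% lower in DDE against control, and 20.2% and 29.7% in PXDDE against DDE. In PXDDE against control they were 31.6% and 39.3%. Of 12 genes that process SREBPs or sense sterol with the members, 8 were higher and 1 lower in DDE against control, 3 higher and none lower in PXDDE against DDE, and 10 higher and none lower in PXDDE against control. Syvn1, a ubiquitin ligase of the endoplasmic reticulum, had means of 4.45, 5.04 and 5.47, and March6, a ligase of the same membrane that acts on Sqle protein, 1.14, 1.68 and 1.86. Both rose in DDE against control, by 0.58 (adjusted p = 8.1e-07) and 0.54 (adjusted p = 1.66e-05), and again in PXDDE, by 0.44 (adjusted p = 7.5e-06) and 0.18 (adjusted p = 0.0197). The last change was not called with the deposited values. Srebf1 was the gene lower in DDE, by 0.41 on the log2 scale (adjusted p = 7.74e-06), and it was 2.08-fold higher in PXDDE than in DDE (adjusted p = 2.94e-09).

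In the list of uptake, lysosome and sterol transfer, 14 genes were tested, with 5 higher and 1 lower in DDE against control, 7 and 0 in PXDDE against DDE, and 9 and 1 in PXDDE against control. The shares over all genes tested are those given with the previous list. Osbp, an exchanger of sterol and phosphoinositide between endoplasmic reticulum and Golgi, had means of -0.43, 0.03 and 0.62, and Tmem97, a partner of Npc1, 4.26, 4.77 and 5.04. Each rose in both steps, Osbp by 0.46 (adjusted p = 3.15e-04) and 0.59 (adjusted p = 4.93e-05) and Tmem97 by 0.51 (adjusted p = 8.65e-06) and 0.27 (adjusted p = 7.84e-04). Lrp1, an endocytic lipoprotein receptor, had means of 2.87, 2.88 and 3.49 and was 1.53-fold higher in PXDDE than in DDE (adjusted p = 7.51e-06). Gramd1c, a sterol carrier at membrane contacts, rose by 0.31 in PXDDE against DDE (adjusted p = 5.95e-05), and its relative Gramd1a fell by 0.49 in DDE (adjusted p = 4.41e-04). Scarb1, the receptor for high-density lipoprotein, had means of 3.73, 3.77 and 3.85 and passed in no comparison under the main settings. PXDDE was called above control under 5 of 23 alternatives, which were leaving out control replicate 3 (0.18), median centring (0.50), normexp correction (0.17), probes above background on every array (0.13) and the mean of its probes (0.34). Under median centring both other comparisons were called higher too, at 0.27 for DDE against control and 0.23 for PXDDE against DDE.

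LXR is the receptor that oxysterols activate, and 8 of its genes and targets were tested. In DDE against control 2 were higher and 4 lower, in PXDDE against DDE 5 and 1, and in PXDDE against control 4 and 3. Over all genes tested 24.0% were higher in DDE against control, so the 2 of 8 higher is near the background. Abcg5 and Abcg8, which together form the transporter that secretes cholesterol into bile, fell in DDE by 0.54 (adjusted p = 9.1e-06) and 0.45 (adjusted p = 1.02e-05) on the log2 scale. In PXDDE Abcg5 was 1.52-fold below control (adjusted p = 1.02e-06), and Abcg8 was 0.26 below it (adjusted p = 3.15e-04) but 0.12 above it under median centring. Abca1, which exports cholesterol to lipoproteins, rose by 0.48 in PXDDE against DDE (adjusted p = 6.22e-05). Lpcat3, an acyltransferase of phospholipids, had means of 4.99, 5.47 and 6.0, and Scd1, the stearoyl-CoA desaturase, 7.92, 7.50 and 8.61.

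Scd1 fell by 0.42 in DDE (adjusted p = 1.34e-04) and was 2.16-fold higher in PXDDE than in DDE (adjusted p = 5.86e-08). Nr1h3, which encodes the liver form of LXR, fell by 0.30 in PXDDE against DDE (adjusted p = 1.08e-04), a call lost with the deposited values, at -0.09. It also fell by 0.11 in DDE against control (adjusted p = 0.0399), but rose by 0.12 under median centring. That call was lost, among other alternatives, without control replicate 1 (-0.10), 2 (-0.11) or 3 (-0.11), DDE replicate 2 (-0.10), 3 (-0.11) or 4 (-0.09), or PXDDE replicate 2 (-0.11), and it held under 9 of 23 alternatives.

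Of the 10 tested genes on the isoprenoid branches, which make dolichol, ubiquinone and lipid anchors, 4 were higher and 3 lower in DDE against control, 5 and 4 in PXDDE against DDE, and 5 and 3 in PXDDE against control. Over all genes tested 26.3% were lower in DDE against control, so the 3 of 10 lower is near the background. Dhdds and Nus1 are subunits of the enzyme that makes the dolichol backbone. Dhdds had means of 1.14, 1.63 and 1.94 and rose by 0.49 (adjusted p = 2.02e-04) and 0.31 (adjusted p = 4.05e-03), and Nus1 had means of 2.60, 2.66 and 2.27 and fell by 0.39 in PXDDE against DDE (adjusted p = 1.14e-05). Against control the Nus1 fall was 0.33, but a rise of 0.05 under median centring. Coq2, an enzyme of ubiquinone synthesis, and Fnta, a subunit of protein farnesyltransferase, fell in PXDDE against control by 0.53 (adjusted p = 9.72e-07) and 0.48 (adjusted p = 1.41e-06), though Fnta was at -0.11 and not called under median centring. Rabggta, a subunit of the enzyme that attaches geranylgeranyl groups to Rab proteins, was 1.51-fold higher there (adjusted p = 8.41e-06).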

How the data were processed

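Total RNA of 12 liver samples was labelled with Cy3 and hybridised to one-colour arrays, per the labels' protocols. The scanner files hold the processed intensity of each spot, which Agilent Feature Extraction 11.5.1.1 made, per the file headers. A deposited table of log2 values, whose processing by the authors is not given in the sources used here beyond the names RMA and limma in the submitters' processing notes, served as an alternative; it correlated with the scanner values at 0.9949 to 0.9964, its column medians were 5.3243 to 5.3479, and its centring is unknown. Of 62976 spots per array, 3671 controls and 102 to 177 outlier spots were left out. The log2 processed intensity minus the array's 75th percentile was averaged over spots of a probe. A probe was kept if every array of some group had it well above background, which left 27098 of 56605, and the brightest of each gene name was fitted with limma 3.58.1 in R 4.3.3 (1 fit, group as the only term, 9 residual degrees of freedom), with Benjamini-Hochberg adjustment. The procedure was tested on simulated data, but no error rate from that test is given here. The median SD within groups was 0.101 over genes and 0.0738 over the members; the number of arrays limits the precision.

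The members and lists were chosen with earlier results of these data known. All members are named, and of the other lists up to 3 called genes per comparison with the smallest p, plus Srebf1, Scarb1 and Nr1h3. All array values are given for members with large changes and those that go against the rest. The planned search of promoter letters was not run, as no promoter sequences were used here. Alternatives were other scalings and background corrections, other filters and probe choices, blocks for replicate number or slide, and leaving out each array. The arrays came from 5 slides, each scanned apart.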

Additional observations from a re-analysis of the deposited data

Results flagged for a closer look

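Over 83 sets of 4 arrays, each 1 member in 1 group, 6 had 1 array standing far from its 3 neighbours by Dixon's criterion; chance alone flags about 1 in 20. Mvk was 5.06 on DDE replicate 4 against 5.20 to 5.21 on the others. Sqle was 4.87 on DDE replicate 1 against 4.72 to 4.73, and Ebp was 7.52 on control replicate 1 against 7.44 to 7.45. Sc5d was 5.26 on DDE replicate 1 against 5.45 to 5.49, and 5.91 on PXDDE replicate 1 against 5.72 to 5.73. Npc2 was 2.96 on PXDDE replicate 1 against 3.09 to 3.12.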

How the results depend on the processing

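Each of 84 member results (28 genes in 3 comparisons) was recomputed under 23 alternatives. Of these 1932 values, 1780 kept direction and side of the threshold, 12 were uncalled both times but turned sign, 83 lost the call, 40 gained one and 17 turned sign with a call on at least 1 side; 44 results kept both under every alternative. Where no cause is given it was not tested. The number of members lower in PXDDE than in DDE, 5, was 3 with quantile normalisation, median centring and the deposited values. The number lower in DDE than in control, 7, was 2 with median centring, 4 without a filter on dim probes (more genes tested), 4 with the replicate number as a block, and 4 to 8 when each array was left out. The number lower in PXDDE than in control, 5, was 2 with median centring. Same-numbered arrays did not pair (correlations of -0.369 to 0.132, and 0 of 12 arrays closest to its own number), so that block adds only a number. Arrays of the same slide correlated at -0.114 to 0.347, and the main fit had no term for the slide. With the slide as a block, 81 of the 84 member results were the same, 2 gained a call and 1 lost it. Uncalled sign turns were those of Ggps1 (0.08), Lss (0.12), Sc5d (0.15) and Stard4 (0.13) with median centring in DDE against control, Ebp with normexp and quantile normalisation (0.10) and Stard4 without PXDDE replicate 1 (-0.01) in PXDDE against control, Msmo1 with the mean of its probes in PXDDE against DDE (-0.27), and Npc2 in DDE against control, whose change is near 0, without 1 of 5 arrays (at most 0.02). With a call on at least 1 side, median centring turned DDE against control for Pmvk (0.10), Idi1 (0.04), Cyp51 (0.08), Npc2 (0.23), Nr1h3 (0.12), Fnta (0.01) and Coq2 (0.04), and PXDDE against control for Insig2 (0.09), Npc2 (0.21), Soat1 (0.22), Nus1 (0.05) and Abcg8 (0.12). Ebp in PXDDE against control reversed with quantile normalisation (0.10), median centring (0.29), the deposited values (0.34) and the mean of its probes (0.17), and Abcg5 in PXDDE against DDE with the deposited values (0.13). With the mean of a gene's probes Tm7sf2 (-0.02; its bright spot is missing on DDE replicate 3, so the dimmer probe stands alone there) and Sc5d (0.22) reversed in DDE against control, Npc1 in all 3 comparisons (-0.23, -0.19 and -0.42), Hmgcs1 in PXDDE against DDE (-0.31), and Srebf2 minus Srebf1 in PXDDE against control (0.02). The alternatives for differences between related genes were chosen after seeing the data.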
